A study of Homo sapiens with 17 samples.

Results

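The transcripts examined here encode 10 factors of mRNA export, namely the export receptor NXF1 and its partner NXT1, the adaptors ALYREF and SARNP, and the THO subunits THOC1, THOC2, THOC3, THOC5, THOC6 and THOC7. They were chosen by gene name for their role, with earlier results of these data known, and the rule itself uses no measured value. All 10 were found among the 18869 genes of the deposited table. Of these, 9 had an average TPM (a transcript level scaled to gene length and library size) of at least 5 in both immunoprecipitations (IPs), and THOC1, at 3.87 in the PABPC IP, did not. The comparison set was the 9607 protein-coding genes (PCGs) that met this minimum.

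The study used HEK293T cells, an established line from human embryonic kidney, carrying doxycycline-inducible constructs in stable lines made by lentiviral integration. RPS2-STAMP is APOBEC1, an enzyme that edits C to U, joined to the small ribosomal subunit protein RPS2, and Control-STAMP is APOBEC1 alone, so that editing above Control-STAMP reports contact with the ribosome. In all groups doxycycline at 50 ng/ml was given for 24 h before the cells were crosslinked with formaldehyde, and RNA was sequenced from the Input, from a PABPN IP and from a PABPC IP of the same lysate. RPS2-STAMP had 3 samples for each fraction, whereas Control-STAMP had 2 for the PABPC IP and 3 for each other fraction. The paper states that the lysate was cytoplasmic, which the labels leave unstated. The file gives 1 average TPM per gene and fraction, and 1 normalized EPKM (edits scaled to transcript length and library size, with control editing subtracted) per gene and fraction. No SD, n or p-value can therefore be given for any difference, and whether neighbours in an order of levels differ beyond replicate error cannot be told. The file holds no read counts, and the paper states depth over the STAMP libraries as a whole, so the depth behind each fraction is unknown. Of genes known in HEK293 lines, the Input TPM was 184 for VIM, 9.0 for NEFM and 0.797 for PAX2, which was thus near 0, and 3 markers of other lineages that were looked up (PTPRC, ALB and HBB) had no value to compare.

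mRNA export begins while the transcript is being made and spliced. The THO subunits assemble with a DEAD-box helicase and adaptors into the TREX complex, which is loaded on spliced mRNA near the cap and hands the mRNA to the NXF1–NXT1 receptor for passage through the nuclear pore. PABPN coats the new poly(A) tail in the nucleus and PABPC is the main protein of the tail in the cytoplasm, so the mRNAs that encode the export machinery are themselves passed from PABPN to PABPC.

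The mRNAs of the export factors were split between the PABPs. Partition was measured as the log2 ratio of TPM in the PABPC IP over TPM in the PABPN IP (pseudocount 0.5), centred on its median over PCGs of -0.19, and a gene was counted as higher or lower beyond 0.5 on this scale. By this rule 6 of 10 transcripts were higher in the PABPC IP (ALYREF, THOC3, THOC7, THOC6, NXT1 and SARNP), against 29.9% of PCGs. A further 3 were lower (THOC2, THOC1 and NXF1), against 31.1% of PCGs, and THOC5 lay between the thresholds. The median over the 10 transcripts was 0.76, and the values ran from -2.18 for THOC2 to 1.68 for ALYREF. Without THOC3, whose reads could be shared with a nearly identical copy, 5 of 9 were higher and 3 lower, with a median of 0.61. Subunits of the same THO complex lay at both ends, since 3 of the 6 THO transcripts were higher in the PABPC IP and 2 were lower. These counts compare averages and carry no test.

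**Figure D1:**
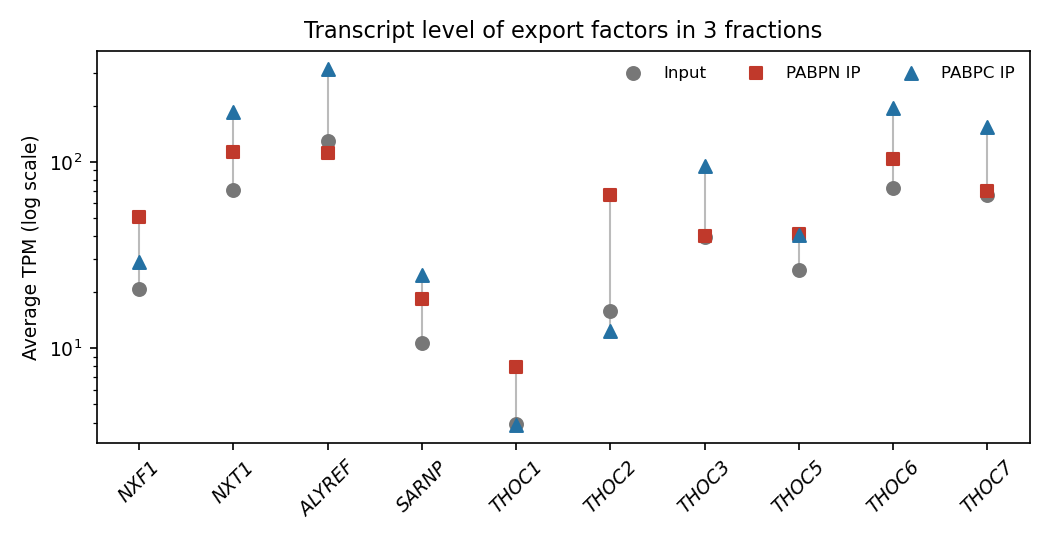
Average TPM (log axis) of the 10 export factor transcripts in the Input (circles), the PABPN IP (squares) and the PABPC IP (triangles), with 1 pooled value per fraction and no error bars because the deposited values are averages. THOC2 reached 66.0 in the PABPN IP and 12.4 in the PABPC IP, whereas ALYREF reached 112 and 316.

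The receptor subunits, which act as a heterodimer, had transcripts of different level and partition. NXF1 (ENSG00000162231, chr11:62792123-62806302, minus strand of hg38) is the receptor that carries bulk mRNA through the pore, and its gene is also known for a retained intron with a constitutive transport element that lets the unspliced mRNA leave the nucleus. NXF1 had a TPM of 20.7 in the Input, 50.9 in the PABPN IP and 28.9 in the PABPC IP. It was thus 1.76-fold higher in the PABPN IP than in the PABPC IP, a centred log2 ratio of -0.62. The deposited TPM adds exonic and intronic reads, so a retained intron counts toward these levels, and its share was not analysed here.
NXT1 (ENSG00000132661, chr20:23350791-23354771, plus strand) encodes the small partner that stabilizes NXF1. NXT1 had a TPM of 70.5 in the Input, 113 in the PABPN IP and 185 in the PABPC IP, which is a centred log2 ratio of 0.91 toward PABPC. The NXT1 transcript was above the NXF1 transcript in all 3 fractions, and a pseudogene, NXT1P1, matches 52.7% of its length at an identity of 96.3%, so that reads could be shared.
Editing of the pair had the same pattern across fractions. Both transcripts were listed at an EPKM of 0 in the Input and the PABPN IP, and were above 0 with PABPC, at 0.0341 for NXF1 and 0.0417 for NXT1. The PABPC IP values lay near the middle of PCGs, at percentiles of 39.3 and 44.7. Over all 10 members 6 were above 0 in the Input, 7 in the PABPN IP and 8 in the PABPC IP, against 78.1%, 72.9% and 82.6% of PCGs. NXT1 was thus listed at 0 in the Input at an Input TPM with a percentile of 88.9, and the reads behind this 0 are unknown. Control editing was subtracted and no value lies below 0, so a listed 0 need not mean that edits were absent.

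ALYREF and SARNP, adaptors that link the spliced mRNA to the receptor, both lay toward PABPC. ALYREF (ENSG00000183684, chr17:81887835-81891586, minus strand) had a TPM of 129 in the Input, 112 in the PABPN IP and 316 in the PABPC IP, the highest of the 10 transcripts in both the Input and the PABPC IP. It was 2.82-fold higher in the PABPC IP than the PABPN IP, a percentile of 98.9 among PCGs. ALYREF was also the lowest of the 10 for TPM in the PABPN IP over the Input, with a centred log2 ratio of -1.31.
SARNP (ENSG00000205323, chr12:55752463-55817724, minus strand), an RNA-binding protein of TREX, had a TPM of 10.7 in the Input, 18.4 in the PABPN IP and 24.8 in the PABPC IP. Its centred log2 ratio of PABPC IP over PABPN IP was 0.61, and without centring it was 0.42, below the threshold.
Editing of ALYREF was above 0 in every fraction, with an EPKM of 0.0499 in the Input, 0.0876 in the PABPN IP and 0.145 in the PABPC IP. SARNP, listed at 0 in the Input, reached 0.0804 EPKM with PABPN and 0.0955 with PABPC. For both adaptors the PABPC IP had the highest EPKM and the Input the lowest. The transcript of SARNP has copies elsewhere in hg38 that match 98.6% and 98.7% of its length at identities of 91.3% and 87.3%, and reads shared with such copies could be split or lost in counting.

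THOC2 stood apart among the THO subunits. THOC2 (ENSG00000125676, chrX:123600561-123733056, minus strand) encodes the large scaffold of THO. Its TPM was 15.8 in the Input, 66.0 in the PABPN IP and 12.4 in the PABPC IP. The PABPN IP level was thus 5.33-fold the PABPC IP level, a percentile of 1.52 for the ratio of PABPC IP to PABPN IP among PCGs. THOC2 was the 1 member above the threshold for TPM in the PABPN IP over the Input, with a centred log2 ratio of 0.92.
The EPKM of THOC2 was also higher with PABPN, a direction that turned when EPKM was divided by TPM. Its EPKM was 0.0134 in the Input, 0.117 in the PABPN IP and 0.0564 in the PABPC IP. The PABPN IP value was the highest of the 10 transcripts in that fraction, with a percentile of 87.7, and 2.08-fold the value in the PABPC IP. On the log2(EPKM + 0.01) scale the ratio of PABPC IP to PABPN IP was -0.94, and with EPKM + 0.01 divided by the TPM of the same fraction it was 1.43, toward PABPC.

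THOC1 and THOC5 encode further large subunits of THO. THOC1 (ENSG00000079134, chr18:214520-268050, minus strand) had the lowest TPM of the 10 in each fraction, at 3.92 in the Input, 7.93 in the PABPN IP and 3.87 in the PABPC IP. It was 2.05-fold higher in the PABPN IP than in the PABPC IP. Its EPKM was 0.0152 in the Input and 0.00337 in the PABPN IP, and it stood at 0 in the PABPC IP.
THOC5 (ENSG00000100296, chr22:29505879-29555216, minus strand) was shared evenly, with a TPM of 26.2 in the Input, 41.1 in the PABPN IP and 40.6 in the PABPC IP. Its partition value of 0.17 was -0.017 without centring. Its EPKM was 0.0459 in the Input, 0.0953 in the PABPN IP and 0.0972 in the PABPC IP, so the IPs differed by 0.00193 and both were above the Input.

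THOC6 and THOC7, small subunits of THO, resembled each other. THOC6 (ENSG00000131652, chr16:3024027-3027755, plus strand), a WD-repeat protein, had a TPM of 72.2 in the Input, 104 in the PABPN IP and 193 in the PABPC IP. THOC7 (ENSG00000163634, chr3:63833870-63863868, minus strand) had a TPM of 66.3 in the Input, 70.0 in the PABPN IP and 154 in the PABPC IP. Their centred partition values were 1.09 and 1.33, both toward PABPC.
Both were edited most in the Input. THOC6 had an EPKM of 0.291 in the Input, 0.0789 in the PABPN IP and 0.161 in the PABPC IP, and its Input and PABPC IP values were the highest of the 10 transcripts. THOC7 had an EPKM of 0.143 in the Input, 0.0204 in the PABPN IP and 0.0457 in the PABPC IP. With PABPC the EPKM was 2.04-fold that with PABPN for THOC6 and 2.24-fold for THOC7, close to their TPM folds of 1.87 and 2.21. Of the exonic bases of THOC7, 92.3% lie opposite genes on the other strand (C3orf49, THOC7-AS1 and ATXN7), more than for any other of the 10, compared with 30.3% for ALYREF and 25.5% for NXT1. On the same strand, other genes overlap 28.0% of the exonic bases of THOC5 and 14.0% of those of THOC3. The study removed regions shared by overlapping genes before counting, and how much of these genes was left and whether strand was considered are not given in the sources used here.

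**Figure D2:**
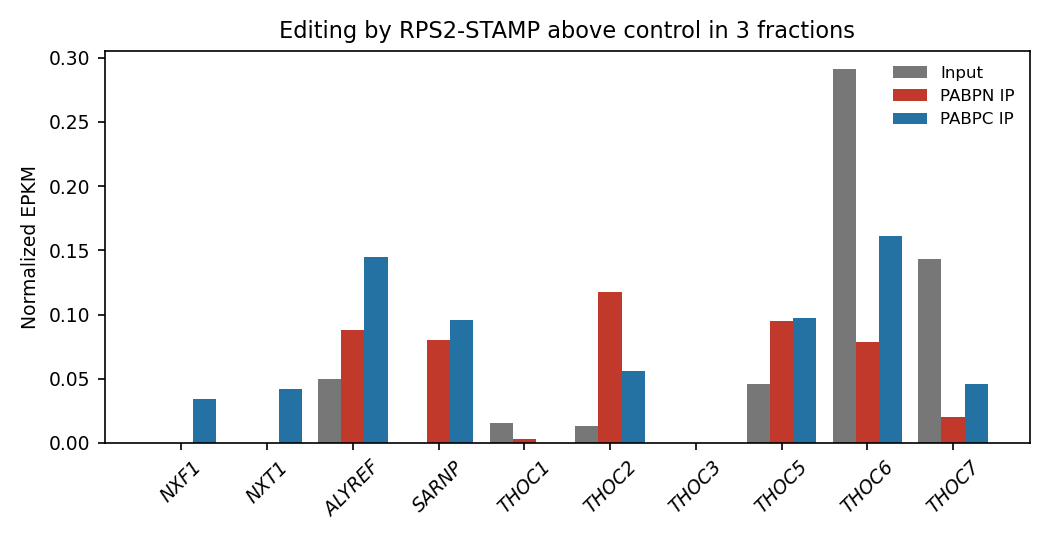
Normalized EPKM of the 10 transcripts in the Input (grey), the PABPN IP (red) and the PABPC IP (blue), with 1 pooled value per bar, and no bar where the value is 0. THOC6 and THOC7 were highest in the Input (0.291 and 0.143), THOC2 in the PABPN IP (0.117), and NXF1 and NXT1 were above 0 in the PABPC IP alone.

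THOC3, a WD-repeat subunit of THO, had no listed editing above control in spite of an abundant transcript. THOC3 (ENSG00000051596, chr5:175917873-176034680, minus strand) had a TPM of 39.6 in the Input, 40.2 in the PABPN IP and 95.2 in the PABPC IP, which is a centred partition value of 1.42 toward PABPC. Its EPKM was listed at 0 in all 3 fractions. This was so for 2.07% of PCGs, and for 30 of the 2113 PCGs (1.42%) with an Input TPM at least as high.
THOC3 was the member with a nearly identical copy in the genome. Its canonical transcript aligned over 100% of its length, at an identity of 99.6%, to a locus of chromosome 5 annotated as a transcribed unprocessed pseudogene (ENSG00000170089), and the coding sequences differed by 2 substitutions and 1 insertion or deletion in 1053 bases. The 30 coding bases around each substitution are printed to show how little separates reads from the loci. They are given 5′ to 3′ in the sense of the transcript and on hg38, with the differing base in capitals, and positions count from 1 at the A of the start codon. The first pair holds C51T, with the base of THOC3 written first, and lies at chr5:175968144-175968173 on the minus strand and chr5:177875630-177875659 on the plus strand.
THOC3 at C51T: gttgggccagagcggCcccggctcgatggc
Copy at C51T: gttgggccagagcggTcccggctcgatggc
The other pair holds G942A, and lies at chr5:175960069-175960098 on the minus strand and chr5:177883701-177883730 on the plus strand.
THOC3 at G942A: gaccttcacagtggcGtggcaccccaaaag
Copy at G942A: gaccttcacagtggcAtggcaccccaaaag
The first of these differences has the same letters as a C-to-U edit read from DNA. The copy had TPM values of 19.9 in the Input, 22.7 in the PABPN IP and 49.2 in the PABPC IP, which were 0.502, 0.566 and 0.517 of those of THOC3. Its centred partition value was 1.29, close to the 1.42 of THOC3. The copy reached 0.0265 EPKM with PABPN and stood at 0 in the other fractions. Reads that fit both loci could be split or discarded, so the values of both genes are uncertain, and the part of this in the values of 0 for THOC3 was not tested.

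Across all 10 transcripts, EPKM was higher in the PABPC IP than the PABPN IP for 7, lower for THOC1 and THOC2, and equal at 0 for THOC3. Of PCGs, 56.4% were higher and 37.4% were lower. The median difference over the 10 was 0.0202 EPKM, against 0.0108 over PCGs, and the differences ran from -0.0608 for THOC2 to 0.0819 for THOC6. On the log2(EPKM + 0.01) scale, which understates changes at low values, 2 transcripts were higher with PABPC by 2-fold or more, against 36.3% of PCGs, and 0 were at least 2-fold lower, against 21.1%. The 2 were NXF1 and NXT1, which were listed at 0 in the PABPN IP, so that their call rests on the pseudocount and vanished at 0.1. The EPKM folds of THOC6 (2.04) and THOC7 (2.24) toward PABPC and of THOC2 (2.08) toward PABPN exceeded 2 without the pseudocount and fell short with it. In TPM and EPKM alike, THOC1 and THOC2 were higher in the PABPN IP and ALYREF, SARNP, NXT1, THOC6 and THOC7 in the PABPC IP. EPKM is not scaled to transcript level, so the directions of EPKM and TPM are not independent. For THOC1, below the TPM minimum, the EPKM was 0.00337 in the PABPN IP and 0 in the PABPC IP. NXF1 had more RNA with PABPN and more editing with PABPC, and THOC5 was near even in both measures. With EPKM + 0.01 divided by TPM, the log2 ratio lay toward PABPC for THOC2 (1.43) and toward PABPN for ALYREF (-0.83) and SARNP (-0.19), each opposite to its EPKM alone. Of the 3 fractions, EPKM was highest in the PABPC IP for 5 transcripts (NXF1, NXT1, ALYREF, SARNP and THOC5), against 42.6% of PCGs, in the PABPN IP for THOC2, against 28.7%, and in the Input for THOC1, THOC6 and THOC7, against 26.6%.

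Against the Input, some export factors had higher EPKM in the IPs and others lower, and no test was run against PCGs. EPKM was higher in the PABPC IP than the Input for 6 transcripts (NXF1, NXT1, ALYREF, SARNP, THOC2 and THOC5) and lower for 3 (THOC1, THOC6 and THOC7), against 57.3% and 37.4% of PCGs. EPKM ratios were not centred. On the log2(EPKM + 0.01) scale their medians over PCGs were 0.30 for the PABPC IP and 0 for the PABPN IP. The medians for uncentred TPM were 0.95 and 1.10, and these shifts enter when EPKM is divided by TPM. At the 2-fold threshold 5 were higher and 2 were lower, against 35.1% and 19.5% of PCGs. NXF1, NXT1 and SARNP, 3 of these 5, were listed at 0 in the Input and so passed through the pseudocount. With a pseudocount of 0.1 these counts were 0 and 0, and with EPKM divided by TPM they were 3 higher and 4 lower. The 4 lower include THOC3, listed at 0 in both fractions. Shares of PCGs were worked out for the main settings alone, so none stands beside the counts under alternatives. In the PABPN IP against the Input, EPKM was higher for 4 (ALYREF, SARNP, THOC2 and THOC5), lower for THOC1, THOC6 and THOC7, and equal at 0 for NXF1, NXT1 and THOC3, against 45.2% of PCGs higher and 47.3% lower. At the 2-fold threshold 2 were higher (SARNP and THOC2) and 2 were lower (THOC6 and THOC7), against 28.4% and 29.6%. SARNP, listed at 0 in the Input, passed through the pseudocount. A pseudocount of 0.1 left 0 higher and 2 lower, and EPKM divided by TPM gave 1 higher and 4 lower. NXF1, 1 of these 4, was listed at 0 in both fractions. The comparisons of the PABPC IP and the PABPN IP with the Input share its values and are not independent. THOC6 and THOC7, the members edited most in the Input, were the lowest for both differences, at -0.130 and -0.0971 EPKM for the PABPC IP and -0.212 and -0.122 EPKM for the PABPN IP. Both differences subtract the Input EPKM, so members high in the Input tend to be low in them by construction.

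Relative to the Input, the centred TPM ratios of the export factors had a median of 0.24 for the PABPC IP and -0.45 for the PABPN IP, whereas without centring the medians were 1.19 and 0.65. Uncentred TPM ratios had medians over PCGs of 0.95 (PABPC IP over Input) and 1.10 (PABPN IP over Input) on the log2 scale, and centred values are relative to these shifts. For the PABPC IP, 0 of 10 transcripts were above 0.5, against 9.02% of PCGs, and 2 were below -0.5 (THOC1 at -0.97 and THOC2 at -1.29), against 17.4%. Centred values of the 8 others ran from -0.48 for NXF1 to 0.46 for THOC6. For the PABPN IP, THOC2 was above 0.5, against 23.7% of PCGs, and 4 were below -0.5 (ALYREF at -1.31, THOC3 at -1.08, THOC7 at -1.03 and THOC6 at -0.59), against 20.6%. The uncentred log2 ratio was -0.20 for ALYREF, and it was above 0 for THOC3 (0.021), THOC7 (0.077) and THOC6 (0.52), so that the direction of these 3 turned without centring. With TPM rescaled to a common total in place of centring, THOC3 (-0.17) and THOC7 (-0.11) were below 0 and THOC6 (0.33) was above.

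Members with longer coding sequences and more exons tended to lie toward PABPN, with exceptions. The 3 transcripts higher in the PABPN IP had coding lengths of 1857 (NXF1), 1971 (THOC1) and 4779 bases (THOC2) and 21, 21 and 39 exons in the canonical transcript. The 6 higher in the PABPC IP had coding lengths from 420 bases (NXT1) to 1053 bases (THOC3) and from 2 to 13 exons. THOC5, between the thresholds, had a coding length of 2049 bases and 20 exons. The median PCG had a coding length of 1320 bases and 9 exons. Across the 10 transcripts Spearman's rho between coding length and partition was -0.65, and across 9601 PCGs it was -0.62. For the number of exons rho was -0.85 across the 10 and -0.37 across the PCGs. These are descriptions over genes that share the same libraries and TPM calculation, and genes are not replicates. ALYREF and THOC3 had the highest partition values, although NXT1, SARNP and THOC7 have shorter coding sequences.

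**Figure D3:**
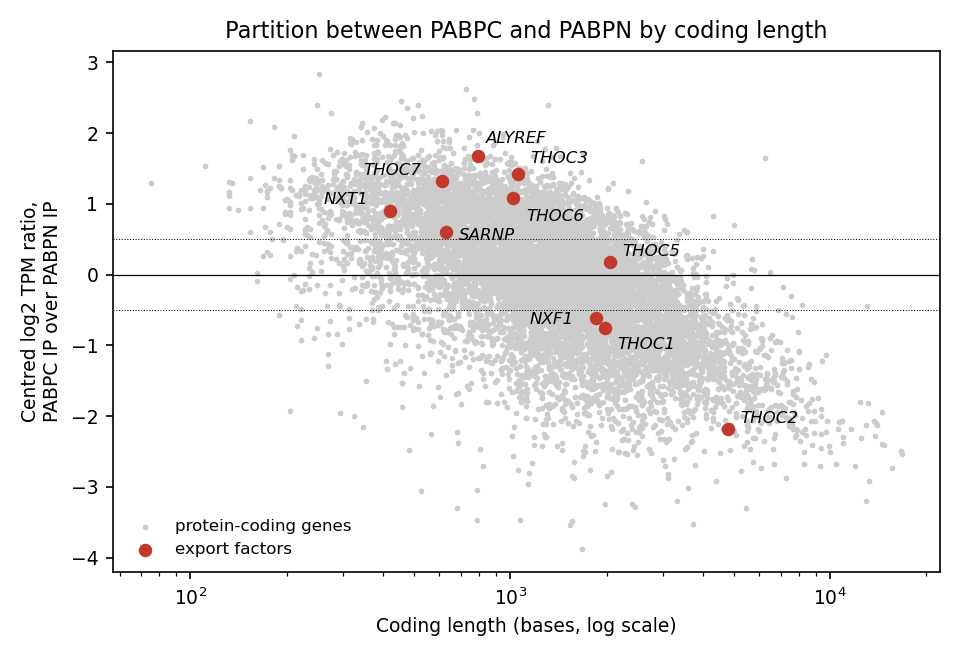
Centred log2 TPM ratio of the PABPC IP over the PABPN IP against coding length in bases (log axis) for PCGs (grey) and the 10 export factors (red), with dotted lines at the thresholds of 0.5 and -0.5. The 3 members below -0.5 have coding lengths of 1857 bases or more, and the 6 above 0.5 have 1053 bases or fewer.

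Transcript level and editing were also compared within each fraction. Across the 10, Spearman's rho between TPM and EPKM was 0.46 in the Input, 0.031 in the PABPN IP and 0.49 in the PABPC IP, against 0.53, 0.25 and 0.45 across PCGs. Without THOC3, whose values of 0 are uncertain, rho across the members was 0.53, -0.11 and 0.60, so the sign in the PABPN IP turned. In the PABPC IP, NXT1 and THOC6 had like levels (185 and 193 TPM) and EPKM of 0.0417 and 0.161. The share of cytosines, the base that APOBEC1 edits, ran from 16.6% of the canonical transcript in THOC7 to 28.6% in THOC6, and these were the members edited most in the Input. NXT1, listed at 0 in the Input, had 27.5% cytosines.

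Some PCGs had values much like those of single members. Likeness was the Euclidean distance over 6 values, log2(TPM + 0.5) and log2(EPKM + 0.01) in the 3 fractions. The nearest to NXF1 were UNC5B (distance 0.30), ZC3H3 (0.31) and NOCT (0.37), all listed at an EPKM of 0 in the Input and the PABPN IP. The nearest to NXT1 was VPS4A (0.29), to THOC6 MYCBP (0.30), to SARNP SLC25A43 (0.34), and to THOC5 HECA (0.43). THOC2 had as its nearest gene BIRC6 (0.80), with TPM values of 17.6 in the Input, 66.7 in the PABPN IP and 10.7 in the PABPC IP. ALYREF was as far from its nearest gene, MTA2 (0.77). The nearest to THOC3 was MCAT (0.41), also listed at 0 for EPKM in all fractions.

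Other factors of mRNA export were set beside the 10, as 34 genes in 4 lists. Of the 34, 10 were higher and 14 lower in the PABPC IP than in the PABPN IP by the threshold of 0.5, to be read against 29.9% and 31.1% of PCGs, and their median partition value was -0.046, against 0.76 for the 10. Among 7 partners and co-adaptors of TREX, 3 were higher and 3 lower. DDX39B, the TREX helicase also known as UAP56, had a TPM of 120 in the Input, 554 in the PABPN IP and 170 in the PABPC IP. It lay toward PABPN at -1.51, like THOC2, and its EPKM was 0.159 in the Input, 0 in the PABPN IP and 0.0570 in the PABPC IP. Its reads could be shared with the close paralog DDX39A. ZC3H11A, a zinc finger protein of TREX, had the lowest partition value of this list (-2.43), and ERH the highest (1.54). POLDIP3 had the largest EPKM difference between the IPs, with 0.133 more in the PABPC IP, and ERH the lowest, at -0.0562.
Among 6 genes of TREX-2, the complex that docks at the nuclear basket, 2 were higher and 2 lower, and of the 2 higher SEM1 (TPM of 2.48 in the PABPN IP and 3.21 in the PABPC IP) missed the TPM minimum of 5. The scaffold MCM3AP had a partition value of -1.84 and the largest EPKM difference (0.0772), the centrin CETN2 had a partition value of 1.53, and PCID2 had the lowest EPKM difference (-0.0235). Of 12 genes of the nuclear pore and mRNA release, 1 was higher (GLE1, 0.74) and 6 were lower, the lowest being RANBP2 (-2.22). In this list NUP50 had the largest EPKM difference (0.130) and NUP153 the lowest (-0.0993). Of 9 genes of the cap-binding and exon junction complexes, 4 were higher, the highest being MAGOH (1.47), and 3 were lower, the lowest being NCBP3 (-1.07). In this list NCBP1 had the largest EPKM difference (0.0855) and MAGOH, which has the near-identical paralog MAGOHB, the lowest (-0.107). EPKM was higher in the PABPC IP than the PABPN IP for 16 of the 34 genes and lower for 16, against 56.4% and 37.4% of PCGs.

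**Figure D4:**
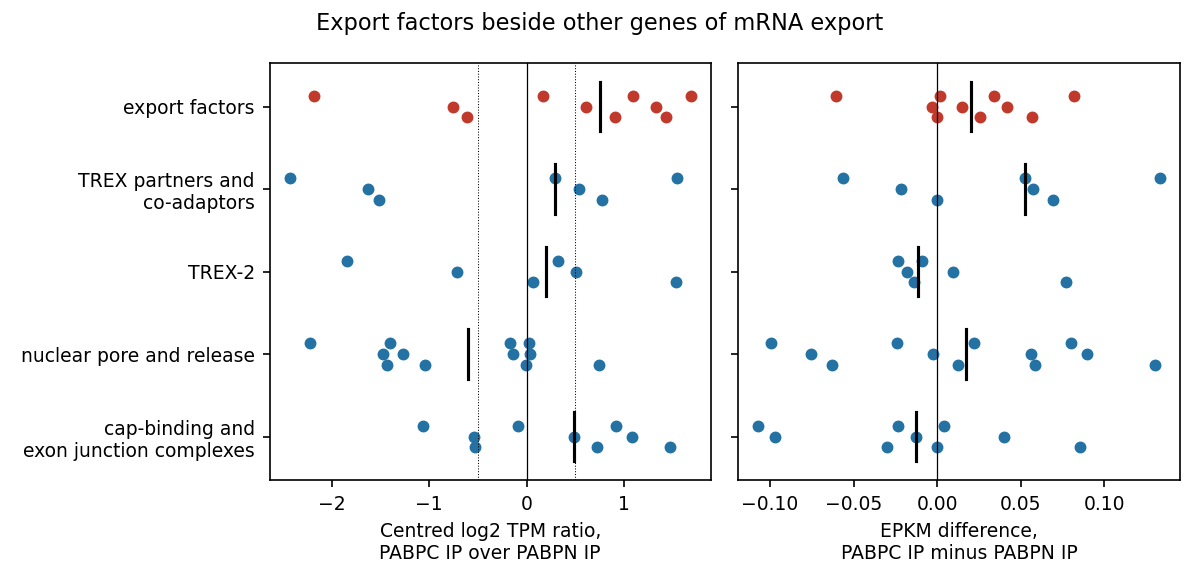
Centred log2 TPM ratio (left) and EPKM difference (right) between the PABPC IP and the PABPN IP for the 10 export factors (red) and 4 lists of other export genes (blue), with each gene as a point, the median as a black bar and dotted lines at 0.5 and -0.5. The 10 export factors have a median partition value of 0.76. The median is 0.29 for TREX partners and co-adaptors and 0.19 for TREX-2. It is 0.48 for the cap-binding and exon junction complexes and -0.60 for the nuclear pore and mRNA release.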

How the data were processed

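RNA from the Input, PABPN IP and PABPC IP of RPS2-STAMP (9 samples) and Control-STAMP (8 samples) cells was sequenced by the authors after ribosomal RNA depletion. Per the paper's methods and the submitters' processing notes, reads were aligned to hg38 with STAR and counted with featureCounts 2.0.2 on an annotation derived from GENCODE 34 that left out overlapping regions and readthrough transcripts. The deposited TPM is an average per fraction of exonic plus intronic TPM. The deposited EPKM is a signal made by the authors from edits whose confidence score was at least 0.5, less the control editing, and no value lies below 0. Which samples were averaged is not stated.

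The members and gene lists were chosen with earlier results of these data known. Named were all members and DDX39B, the highest and lowest gene of each other list by partition and by EPKM difference, and nearest patterns. SEM1 was named after its values were seen. The tests designed for values per sample could not be run. Gene structure came from GENCODE 44 on hg38, in which 18806 of the 18869 genes matched by identifier. Copies were sought with minimap2 2.31. Calls were tested on simulated data, which checks the calling steps and cannot show the replicate error of the deposited values. Protein sequences were not used here. Tables and figures were made in Python 3.11.15 with matplotlib 3.10.9, SciPy 1.17.1, pandas 2.3.3 and NumPy 2.4.6.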

Additional observations from a re-analysis of the deposited data

How the results depend on the processing

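No paired analysis was possible because each value is pooled over replicates, and leaving out a replicate was not run for the same reason. A value was taken as unmoved within 1.5 times. Shares of PCGs were worked out for the main settings alone. Counts of members under an alternative thus have no PCG share beside them and do not set the members apart from PCGs. Partition between PABPC and PABPN kept its direction for each called member under every alternative run, and with a threshold of 1 higher members went from 6 to 4, without NXT1 and SARNP, and lower members from 3 to 1. Against the Input the scaling decided the calls by construction. Uncentred medians over PCGs were 0.95 for the PABPC IP and 1.10 for the PABPN IP. Both exceed the threshold of 0.5, so most PCGs would be counted as higher too. Without centring, the median for the PABPC IP was 1.19 (main 0.24) with 7 members higher and 0 lower, and for the PABPN IP 0.65 (main -0.45) with 7 higher and 0 lower. There THOC3 (0.021), THOC6 (0.52) and THOC7 (0.077) reversed. With TPM rescaled to a common total, the PABPC IP gave 0.98, 6 higher and 1 lower, and the PABPN IP 0.47, 4 higher and 0 lower, and THOC6 (0.33) reversed. With a threshold of 1, 1 member was lower in the PABPC IP and 0 were higher in the PABPN IP.

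For EPKM a pseudocount of 0.1 left 0 members higher in each of the 3 comparisons and 0 lower for the PABPC IP against the Input, whose median was 0.43 (main 1.15). With EPKM divided by TPM, 3 members (NXF1, NXT1 and THOC2) were higher in the PABPC IP than the PABPN IP and 1 (THOC3) was lower. Of the 3, NXF1 and NXT1 were listed at 0 in the PABPN IP. Against the Input the same alternative gave the PABPC IP a median of 0.20, 3 higher and 4 lower, and the PABPN IP 1 higher and 4 lower. Among these, THOC3 (PABPC IP against both) and NXF1 (PABPN IP against the Input) had an EPKM of 0 on both sides, so that their calls came from the pseudocount and TPM alone and say nothing of editing. The values for THOC1 (0.53) and THOC7 (-0.26) in the PABPC IP over the PABPN IP also took their direction from the pseudocount. At 1.5-fold, 5 were higher and 1 lower in the PABPC IP than the PABPN IP, and 4 were higher in the PABPN IP than in the Input. Without THOC1, which missed the TPM minimum, 1 was lower with PABPC than in the Input. The number of reads behind each EPKM is unknown, so no limit of detection is given for values listed at 0.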
